A study of Oryza sativa with 21 samples.

Results

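Sucrose synthase cleaves sucrose with UDP into UDP-glucose and fructose, and in filling grains it is one of the main entry points of imported sucrose into starch and cell wall synthesis. The reaction is reversible and conserves the energy of the glycosidic bond as UDP-glucose, whereas invertases hydrolyse sucrose to free glucose and fructose. In rice the enzyme is encoded by a small family, of which SUS2 is known for broad expression across organs and SUS3 for expression in the developing endosperm.

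The family was taken as the 7 loci that carry the names SUS1 to SUS7, among 39217 genes in the grain count table, and all 7 were present. They are SUS1 (LOC_Os03g28330), SUS2 (LOC_Os06g09450), SUS3 (LOC_Os07g42490), SUS4 (LOC_Os03g22120), SUS5 (LOC_Os04g24430), SUS6 (LOC_Os02g58480) and SUS7 (LOC_Os04g17650). The reference gene table carried each of the 7 symbols on the chromosome that the locus number states. SUS1 and SUS4 lie on chromosome 3, SUS5 and SUS7 on chromosome 4, and SUS6, SUS2 and SUS3 on chromosomes 2, 6 and 7. On chromosome 4 the order of the pair matched as well. On chromosome 3 the order of SUS1 and SUS4 was checked only against all listed genes there as a set. That check does not fix the order of this pair.

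RNA-seq was done on whole grains at 3 days after pollination, from plants grown in paddy fields. There were 3 libraries each of OE1 and OE2, both lines overexpressing DRW1, and of ZH11, the wild-type cultivar they were compared with. The comparisons ask how DRW1 overexpression alters transcript levels in the young grain, and whether the lines do so alike. The sources used here do not give the promoter that drives DRW1. DRW1 itself is not analysed here, and m5C peak lists of seedlings were not used. The labels do not say whether libraries of a group came from separate plants, so p-values measure the spread between these libraries, which may be technical.

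Each library held between 33237306 and 38117144 counts, and no pair of libraries in a group agreed within counting noise (chi-square per degree of freedom 4.02 to 6.25). Levels below are CPM, counts scaled to a common library size with TMM factors, which are estimated from the bulk of genes. The factors were 0.907, 0.893 and 0.900 in OE1, 0.870, 0.863 and 0.869 in OE2, and 1.28, 1.28 and 1.29 in ZH11. Against scaling by library totals alone, TMM therefore shifts every line-against-ZH11 change upward. With library totals the median log2 change of all genes was -0.54 in OE1 and -0.55 in OE2, and with TMM it was -0.031 and 0.0099. Directions and calls of SUS genes that depend on this choice are named beside them. CPM also follows transcript length, which no file gives, so a higher CPM of one member than of another does not show a higher transcript level. In RNA from whole grains, fewer cells of a type and less RNA per cell cannot be told apart.

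Under either scaling, SUS4 rose and SUS2 fell in both lines, while SUS3 rose in OE1 and fell in OE2. Of the 6 members that could be tested, 5 were higher and 1 lower in OE1 than in ZH11. Of all 24765 genes tested in OE1, 67.7% were called, 33.9% higher and 33.8% lower, at a Benjamini-Hochberg adjusted p below 0.05 in edgeR's quasi-likelihood test. In OE2, 1 member was higher, 3 were lower and 2 did not pass, where 74.4% of all genes were called, 38.4% higher and 36% lower. With so many genes called, the counts of members do not by themselves set the family apart.

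SUS4 had 62.8, 58.4 and 61.2 CPM in OE1, 55.3, 59.0 and 56.2 CPM in OE2, and 29.9, 31.0 and 31.0 CPM in ZH11. Every library of either line lay above every ZH11 library. The log2 fold change was 0.99 (SE 0.06, adjusted p = 2.05e-16, edgeR) in OE1 and 0.89 (SE 0.06, adjusted p = 2.88e-15) in OE2, or 1.98-fold and 1.85-fold. With library totals the changes were smaller, 0.48 and 0.33, and still passed. In OE1, 32.8% of tested genes had a larger absolute change than SUS4, and in OE2 44.3% did.

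SUS2 had 358, 379 and 415 CPM in OE1, 276, 283 and 295 CPM in OE2, and 458, 456 and 464 CPM in ZH11. The groups did not overlap, with ZH11 highest, OE1 between and OE2 lowest. The log2 fold change was -0.26 (SE 0.04, adjusted p = 2.41e-06, edgeR) in OE1 and -0.69 (SE 0.04, adjusted p = 3.19e-16) in OE2. With library totals it was -0.77 and -1.25. A change of the size of that in OE1 was small for these data, since 74.4% of tested genes had a larger one under TMM.

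SUS3 went apart between the lines. It had 347, 380 and 400 CPM in OE1, 131 CPM in each of 2 OE2 libraries and 133 CPM in the remaining one, and 198, 197 and 191 CPM in ZH11. All OE1 libraries lay above ZH11 and all OE2 libraries below it. The log2 fold change was 0.94 (SE 0.04, adjusted p = 1.15e-19, edgeR) in OE1 and -0.57 (SE 0.04, adjusted p = 1.51e-13) in OE2. With library totals it was 0.43 and -1.14.

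**Figure D1:**
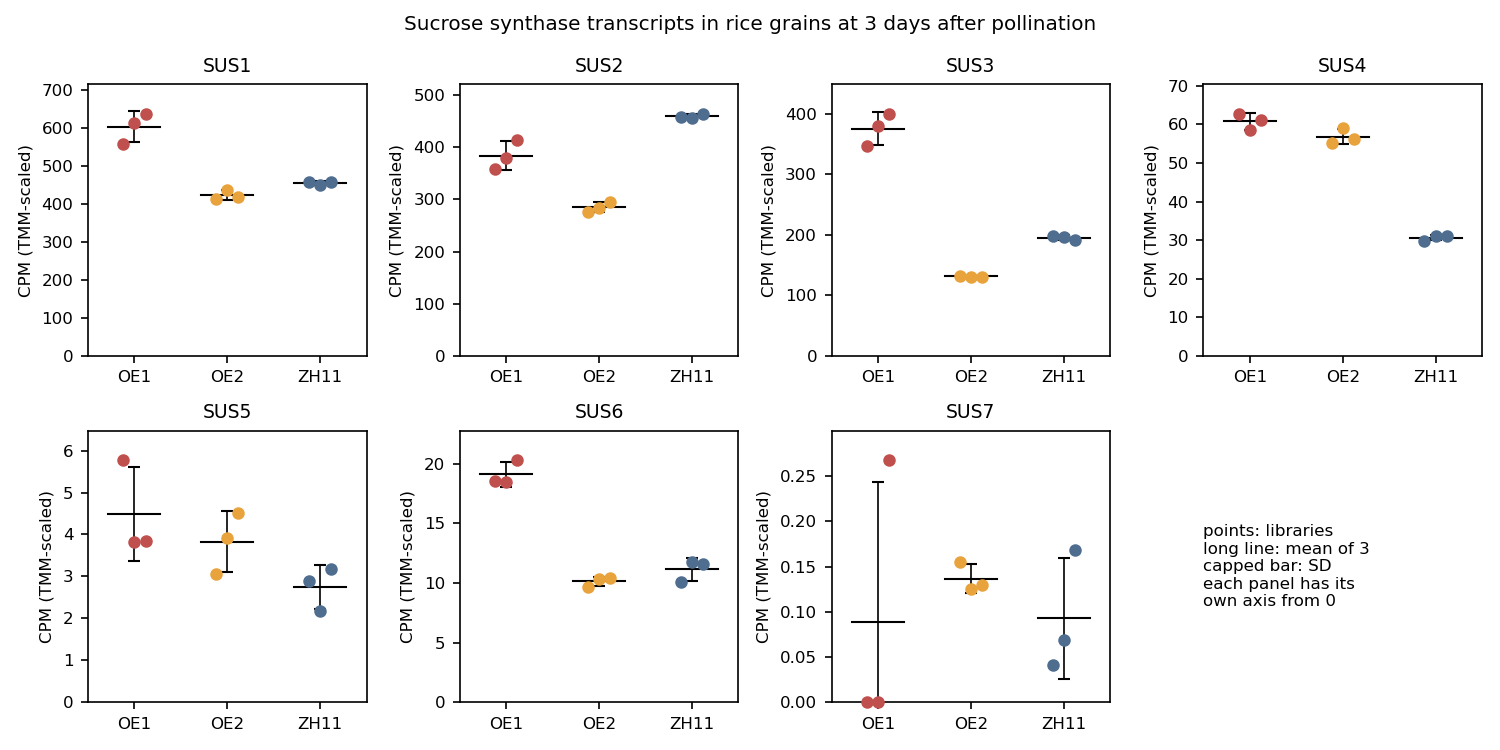
CPM of SUS1 to SUS7 in each grain library of OE1, OE2 and ZH11, from left to right, with the mean of 3 libraries as a long line and the SD as a capped bar; each panel has its own axis from 0. SUS4 stands at 55.3 to 62.8 CPM in the lines, above all ZH11 libraries, and SUS3 is above ZH11 in OE1 and below it in OE2.

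SUS1, which together with SUS2 took most of the family's counts in every library, had 558, 614 and 638 CPM in OE1, 414, 437 and 417 CPM in OE2, and 457, 449 and 459 CPM in ZH11. The OE1 libraries lay highest and the OE2 libraries lowest. SUS1 rose in OE1 under TMM (log2 fold change 0.41, SE 0.04, adjusted p = 1.1e-10, edgeR), but the direction turned to -0.10 with library totals (adjusted p = 0.0154). In OE2 the change was -0.11 (SE 0.04, adjusted p = 0.0202), and 91.7% of tested genes had a larger one. That call was lost when any of 3 libraries was left out. The change was -0.090 without OE2 replicate 1 (adjusted p = 0.0786), -0.098 when OE2 replicate 3 was left out (adjusted p = 0.0645) and -0.10 when ZH11 replicate 3 was (adjusted p = 0.0505). With library totals the OE2 change was -0.67.

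SUS6 had 18.6, 18.4 and 20.3 CPM in OE1, 9.70, 10.3 and 10.4 CPM in OE2, and 10.1, 11.8 and 11.6 CPM in ZH11. OE1 stood above both other groups, which overlapped each other. SUS6 rose in OE1 (log2 fold change 0.78, SE 0.10, adjusted p = 6.72e-08, edgeR), and by 0.27 with library totals (adjusted p = 0.0223). In OE2 it had a log2 fold change of -0.14 (SE 0.11) and did not pass (adjusted p = 0.253), although with library totals the change was -0.70 and passed (adjusted p = 5.56e-07).

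SUS5 had 5.77, 3.82 and 3.85 CPM in OE1, 3.07, 3.91 and 4.50 CPM in OE2, and 2.88, 2.17 and 3.18 CPM in ZH11. OE1 and ZH11 did not overlap, and OE2 overlapped both. The change in OE1 passed under TMM (log2 fold change 0.71, SE 0.22, adjusted p = 0.00573, edgeR), but not with library totals (0.20, adjusted p = 0.416) or without OE1 replicate 1 (0.48, adjusted p = 0.0897). In OE2 the log2 fold change was 0.48 (SE 0.22, adjusted p = 0.0549). It passed without OE2 replicate 1 (0.61, adjusted p = 0.0238) and without ZH11 replicate 3 (0.59, adjusted p = 0.04), and with library totals it was -0.086 (adjusted p = 0.729).

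SUS7 was near the limit of detection and was removed by the filter on low counts, so it was not tested. Its counts were 0, 0 and 8 in OE1, 5, 4 and 4 in OE2, and 2, 3 and 8 in ZH11. A count of 0 in the first and second OE1 libraries allows up to 3 counts, or 0.0902 CPM in either, if every fragment adds a single count. Low counts were more often even than odd in every library, so this limit may be too low. The groups overlapped, and no fold is given.

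The log2 changes of OE1 and OE2 against ZH11 use the same ZH11 libraries, so the lines were also set against each other directly. Of the 6 tested members, 4 were higher in OE1 than in OE2, 0 were lower and 2 did not pass, while 65.2% of all tested genes were called, 32.8% higher and 32.4% lower. SUS3 differed most, with 376 ± 27.2 CPM in OE1 and 131 ± 1.30 CPM in OE2 (SD, n = 3 each), a log2 difference of 1.52 (SE 0.05, adjusted p = 6.03e-25, edgeR) or 2.86-fold. Only 14.7% of tested genes had a larger absolute difference between the lines. SUS6 differed by 0.91 (SE 0.11, adjusted p = 4.62e-09), SUS1 by 0.51 (SE 0.04, adjusted p = 4.87e-13) and SUS2 by 0.43 (SE 0.04, adjusted p = 1.09e-10). These 4 differences had the same direction with library totals and without any single library. SUS4 averaged 60.8 ± 2.21 CPM in OE1 and 56.8 ± 1.93 CPM in OE2, and its difference of 0.098 (SE 0.059, adjusted p = 0.144) passed only with library totals (0.15, adjusted p = 0.0264). SUS5 differed by 0.23 (SE 0.22, adjusted p = 0.374), a value that ran from 0.0089 without OE1 replicate 1 to 0.36 without OE2 replicate 3 and passed in neither case.

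**Figure D2:**
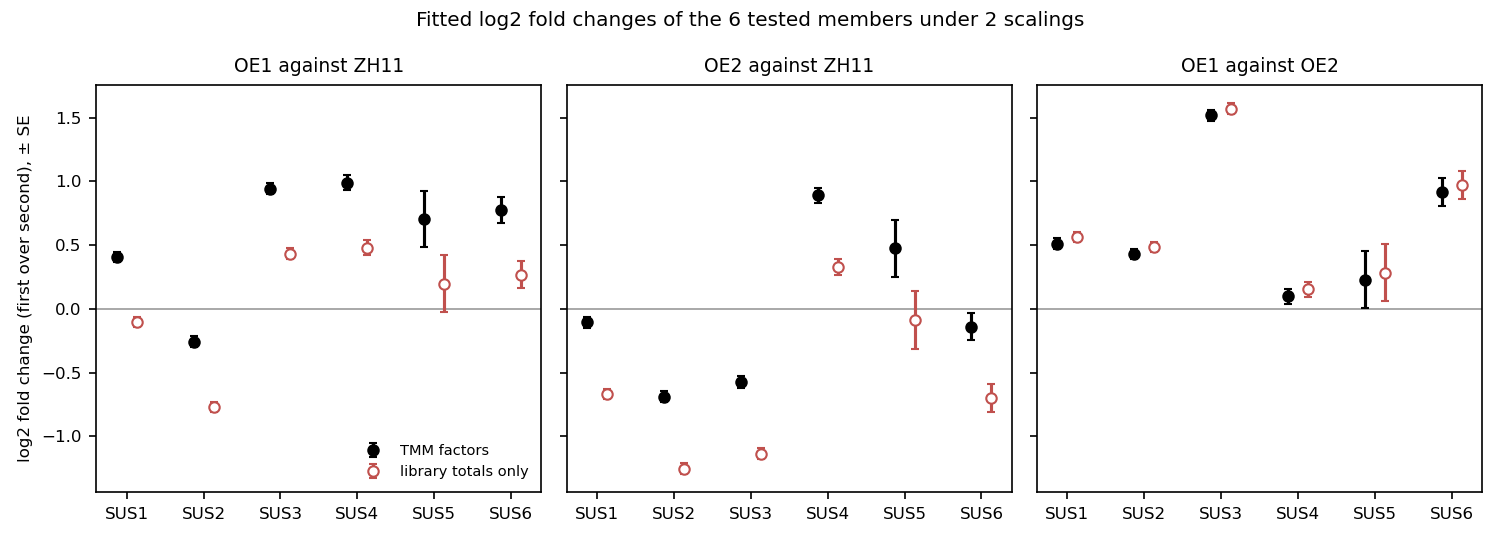
Fitted log2 fold changes of SUS1 to SUS6, first-named group over second, with SE, under TMM factors (filled) and library totals alone (open). SUS2, SUS3 and SUS4 lie on the same side of 0 under both scalings in each panel, whereas SUS1 in OE1 is at 0.41 with TMM and at -0.10 with library totals.

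The composition of the family does not depend on how libraries are scaled, because every member of a library is divided by the same total. SUS1 made up 41.7% ± 0.490 of the family's counts in OE1, 46.5% ± 0.830 in OE2 and 39.4% ± 0.221 in ZH11 (SD, n = 3 each). SUS2 made up 26.5% ± 0.437 in OE1, 31.3% ± 0.878 in OE2 and 39.8% ± 0.225 in ZH11. ZH11 grains thus held SUS1 and SUS2 reads in nearly equal numbers, and both lines held fewer SUS2 than SUS1 reads.

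SUS3 made up 26.0% ± 0.243 of the family's counts in OE1, 14.4% ± 0.414 in OE2 and 16.9% ± 0.406 in ZH11. SUS4 made up 4.22% ± 0.377 in OE1, 6.24% ± 0.124 in OE2 and 2.65% ± 0.0648 in ZH11. The share of SUS6 was 1.32% ± 0.0547 in OE1, 1.11% ± 0.0241 in OE2 and 0.967% ± 0.0843 in ZH11. For SUS1 to SUS4 and for SUS6 the 3 groups did not overlap in share, with the largest share of SUS3 in OE1 and of SUS4 in OE2. How often shares keep the groups apart in other gene families was not computed. A share also moves with the other members. SUS6 had a larger share in OE2 than in ZH11, yet averaged 10.1 CPM in OE2 and 11.2 CPM in ZH11. Its reads per SUS1 read overlapped there, at 0.0234 to 0.0249 in OE2 and 0.0220 to 0.0262 in ZH11. SUS4 averaged 60.8 CPM in OE1 and 56.8 CPM in OE2.

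**Figure D3:**
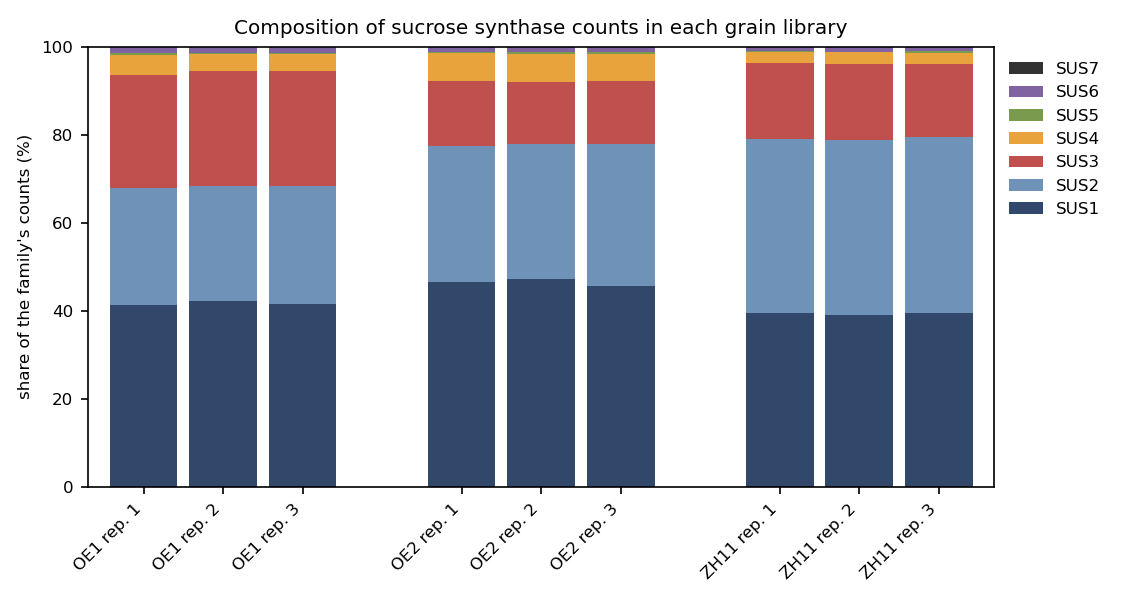
Share of the family's counts, in percent, taken by each member in each grain library (replicates 1 to 3 of OE1, OE2 and ZH11). Libraries of a group resemble each other, with SUS2 at 26.5% in OE1, 31.3% in OE2 and 39.8% in ZH11 on average.

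Ratios of members within a library also need no scaling. SUS2 stood at 0.643, 0.618 and 0.650 reads per SUS1 read in OE1, at 0.667, 0.648 and 0.708 in OE2, and at 1.00, 1.02 and 1.01 in ZH11. Both lines lay below ZH11 and overlapped each other. SUS3 stood at 0.622, 0.619 and 0.628 reads per SUS1 read in OE1, at 0.321, 0.299 and 0.313 in OE2, and at 0.434, 0.438 and 0.416 in ZH11. SUS4 stood at 0.113, 0.0952 and 0.0960 in OE1, at 0.134, 0.135 and 0.135 in OE2, and at 0.0653, 0.0691 and 0.0677 in ZH11. In both of these ratios the groups were apart. SUS3 reads per SUS2 read reached 0.968, 1.00 and 0.966 in OE1, against 0.481, 0.461 and 0.442 in OE2 and 0.433, 0.432 and 0.411 in ZH11. Such ratios show that members changed unequally, not which of them changed.

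Summed over the 7 members, the family stood at 1350, 1454 and 1538 CPM in OE1, 891, 924 and 914 CPM in OE2, and 1156, 1147 and 1160 CPM in ZH11. OE1 thus lay above and OE2 below ZH11 under TMM. With library totals the mean sum was 1302 CPM in OE1, 789 CPM in OE2 and 1479 CPM in ZH11, so that OE1 too lay below ZH11. The family held 0.122% to 0.138% of all counts in OE1, 0.0775% to 0.0797% in OE2 and 0.147% to 0.149% in ZH11.

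Among the 30 listed genes that act beside sucrose synthase and were in the table, 19 were higher, 3 lower and 8 not called in OE1 (33.9% and 33.8% of all genes), with a median log2 change of 0.29 against -0.031 over all genes. In OE2 13 were higher, 11 lower and 6 not called (38.4% and 36% of all genes), with a median of 0.048 against 0.0099. With library totals 9 were higher and 17 lower in OE1, and 7 higher and 18 lower in OE2. Over all 24765 genes tested, 5115 were then higher and 14665 lower in OE1, and 6050 higher and 14233 lower in OE2. Lower calls thus outnumbered higher ones over all genes too. This background holds for the library-total counts of each class and marker list below. A symbol is printed for a gene of this list only where the reference carries it, which held for 19 of the 30.

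Neutral invertases split sucrose without conserving UDP-glucose. All 4 listed were higher in OE1 (33.9% of all genes), and in OE2 3 were higher and 1 lower (38.4% and 36% of all genes). The counts were the same under library totals, where 5115 of all 24765 genes were higher in OE1 and 6050 in OE2. NIN3, the one with the highest mean CPM, had 266, 262 and 259 CPM in OE1, 420, 432 and 437 CPM in OE2, and 130, 129 and 125 CPM in ZH11. NIN3 rose in both lines, by log2 changes of 1.04 (SE 0.04, adjusted p = 2.01e-22, edgeR) in OE1 and 1.75 (SE 0.04, adjusted p = 3.4e-29) in OE2, and also with library totals (0.53 and 1.18). NIN3 was lower in OE1 than in OE2 by a log2 difference of -0.71 (adjusted p = 1.11e-17). Of the 4 neutral invertase genes, 2 were higher and 2 lower in OE1 than in OE2 (32.8% and 32.4% of all genes).

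Fructokinases phosphorylate the fructose that sucrose synthase releases. Both listed genes rose in both lines under TMM, where 33.9% of all genes were higher in OE1 and 38.4% in OE2. FRK1 had 116, 128 and 120 CPM in OE1, 182, 184 and 167 CPM in OE2, and 51.8, 48.8 and 52.8 CPM in ZH11. Its log2 changes were 1.24 (SE 0.05, adjusted p = 3.22e-21, edgeR) in OE1 and 1.80 (SE 0.05, adjusted p = 4.34e-26) in OE2, and 0.73 and 1.23 with library totals. FRK2 averaged 280 ± 15.6 CPM in OE1, 419 ± 8.37 CPM in OE2 and 242 ± 7.64 CPM in ZH11. The rise of FRK2 in OE2 was 0.79 (0.23 with library totals), while in OE1 its change of 0.21 turned to -0.30 with library totals.

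Hexokinases phosphorylate glucose and fructose. Of 10 listed, 4 were higher, 2 lower and 4 not called in OE1 (33.9% higher and 33.8% lower of all genes). In OE2 4 were higher, 4 lower and 2 not called (38.4% higher and 36% lower of all genes). With library totals 2 were higher and 7 lower in OE1, and 1 higher and 5 lower in OE2. HXK3 had 175, 176 and 172 CPM in OE1, 109, 105 and 103 CPM in OE2, and 64.5, 64.7 and 60.2 CPM in ZH11. HXK3 rose in both lines, by 1.47 on the log2 scale (SE 0.05, adjusted p = 1.55e-24, edgeR) in OE1 and by 0.74 (SE 0.05, adjusted p = 6.13e-16) in OE2, and by 0.96 and 0.18 with library totals.

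Sucrose phosphate synthases and phosphatases make sucrose anew. Of 5 synthase genes, 2 were higher, 1 lower and 2 not called in either line. Of all genes, 33.9% were higher and 33.8% lower in OE1, and 38.4% and 36% in OE2. With library totals 2 synthase genes were higher and 3 lower in OE1, and 1 higher and 4 lower in OE2. SPS8 averaged 202 ± 5.80 CPM in OE1, 157 ± 5.98 CPM in OE2 and 126 ± 4.53 CPM in ZH11, with log2 changes of 0.68 and 0.32, the second of which turned to -0.24 with library totals. Of 3 phosphatase genes, 1 was higher and 2 not called in OE1, and all 3 were lower in OE2. With library totals 2 were lower and 1 not called in OE1, and all 3 were again lower in OE2. SPP2 averaged 61.3 ± 1.98 CPM in OE1, 46.1 ± 2.03 CPM in OE2 and 61.0 ± 3.54 CPM in ZH11. It fell in OE2 by 0.40 on the log2 scale (adjusted p = 2.42e-07, edgeR), against a change of 0.0062 (adjusted p = 0.933) in OE1, or -0.97 and -0.50 with library totals.

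The UDP-glucose pyrophosphorylase gene in the table, whose class uses the UDP-glucose that sucrose synthase forms, was higher in OE1 and not called in OE2, whereas with library totals it was not called in OE1 and lower in OE2. Phosphoglucomutases and glucose phosphate isomerases link its product to starch and glycolysis. Under TMM all 5 of these were higher in OE1 (33.9% of all genes), and in OE2 2 were higher, 2 lower and 1 not called (38.4% higher and 36% lower of all genes). With library totals this turned round, with 4 lower and 1 not called in each line. Over all genes, lower calls then outnumbered higher ones as well.

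**Figure D4:**
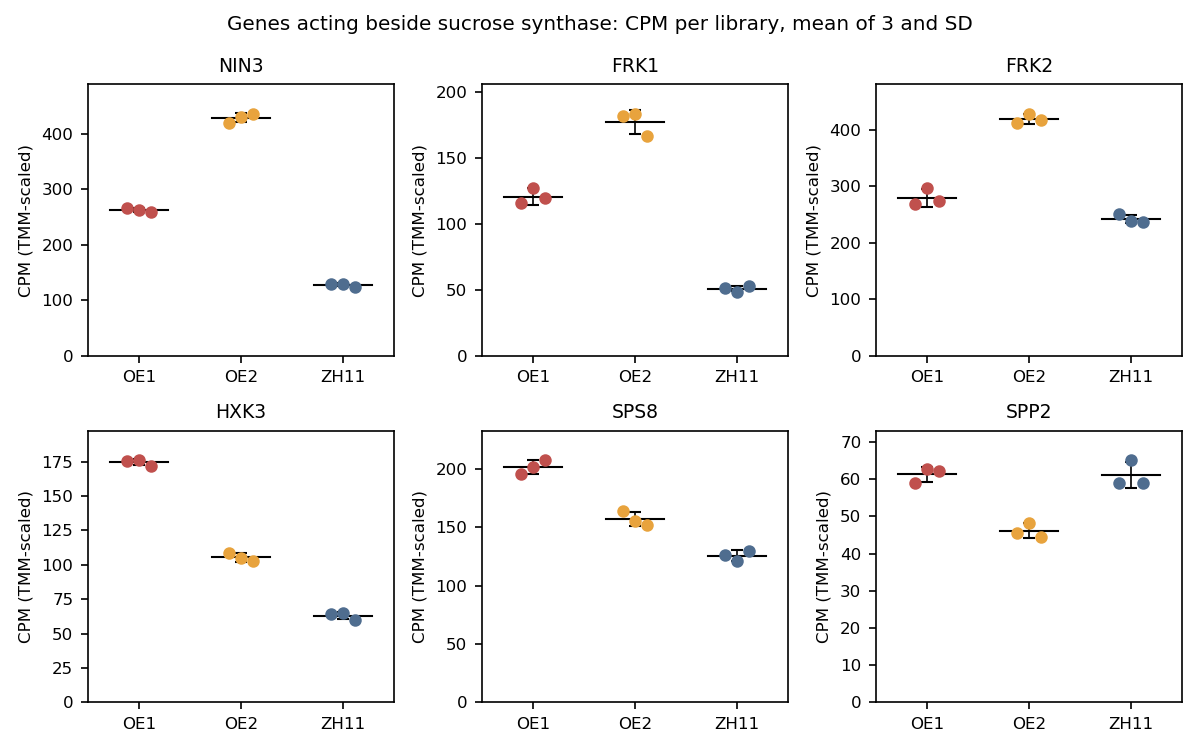
CPM per library of NIN3 (neutral invertase), FRK1 and FRK2 (fructokinases), HXK3 (hexokinase), SPS8 (sucrose phosphate synthase) and SPP2 (sucrose phosphate phosphatase) in OE1, OE2 and ZH11, with the mean of 3 libraries and SD. NIN3, FRK1 and FRK2 are highest in OE2, HXK3 and SPS8 are highest in OE1, and SPP2 is lowest in OE2.

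Marker lists of grain tissues also moved between the groups, and their part in the changes of the SUS genes was not tested. All 8 endosperm markers in the table had counts in every library, and they summed to 432 to 440 CPM in OE1, 223 to 232 CPM in OE2 and 210 to 216 CPM in ZH11. Of these 8, 7 were higher and 1 lower in OE1 (33.9% and 33.8% of all genes). In OE2 5 were higher, 2 lower and 1 not called (38.4% and 36% of all genes). LOC_Os02g32660 and AGPS2 made up most of the endosperm sum in each group. They averaged 211 and 138 CPM in OE1, 111 and 62.5 CPM in OE2, and 81.6 and 101 CPM in ZH11. With library totals the endosperm sum was 386 to 396 CPM in OE1, 193 to 201 CPM in OE2 and 268 to 278 CPM in ZH11, so OE2 then lay below ZH11, with 5 members higher and 1 lower in OE1 and 4 higher and 3 lower in OE2.

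The 4 green tissue markers summed to 257 to 279 CPM in OE1, 205 to 206 CPM in OE2 and 476 to 485 CPM in ZH11. Of these 4, 3 were lower and 1 not called in OE1, and 3 were lower and 1, RBCS, higher in OE2. The TMM counts in this paragraph stand beside 33.9% higher and 33.8% lower of all genes in OE1, and 38.4% and 36% in OE2. With library totals 5115 of all genes were higher and 14665 lower in OE1, and 6050 and 14233 in OE2. RBCS turned to -0.16 in OE2 with library totals, and was not called. All 4 green tissue markers were lower in OE1 under that scaling, and 3 in OE2. The green tissue sum was then 231 to 249 CPM in OE1, 178 CPM in all OE2 libraries and 613 to 622 CPM in ZH11. The 6 maternal and floral organ markers summed to 758 to 784 CPM in OE1, 882 to 912 CPM in OE2 and 986 to 1014 CPM in ZH11, with 1 higher and 5 lower in OE1 and 1 higher, 3 lower and 2 not called in OE2. Their sums with library totals kept that order. They were 688 to 706 CPM in OE1, 767 to 792 CPM in OE2 and 1257 to 1300.1 CPM in ZH11. All 6 of these markers were then lower in OE1, and 5 were lower and 1 not called in OE2. The 5 embryo markers summed to 21.8 to 25.5 CPM in OE1, 42.6 to 47.0 CPM in OE2 and 19.0 to 22.4 CPM in ZH11. Of these 5, 4 were higher and 1 lower in OE1, and 2 were higher and 3 not called in OE2. With library totals 2 were higher, 1 lower and 2 not called in each line. LEA3 made up most of the OE2 sum, at 29.0 CPM on average, against 8.94 CPM in ZH11. The marker lower in OE1 was OSH1, at 5.07 CPM against 10.4 CPM in ZH11. With library totals OE1 lay below ZH11 in the embryo sum, at 19.8 to 22.7 CPM in OE1, 37.0 to 40.6 CPM in OE2 and 24.4 to 28.7 CPM in ZH11. The 6 anther and tapetum markers were low, at 8.72 to 10.8 CPM in OE1, 5.34 to 6.54 CPM in OE2 and 8.77 to 10.8 CPM in ZH11. C6, a lipid transfer protein gene of the tapetum, was at 0 in all ZH11 libraries. It was also at 0 in some libraries of each line and reached at most 0.134 CPM. Of the 4 anther and tapetum markers that could be tested, 1 was higher and 2 lower in OE1, and 3 were lower in OE2. With library totals 3 were lower and 1 not called in each line. The anther sum with library totals was 7.79 to 9.71 CPM in OE1, 4.64 to 5.69 CPM in OE2 and 11.2 to 13.9 CPM in ZH11, so that OE1 no longer overlapped ZH11.

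The genes whose pattern most resembled the pair of SUS genes with the highest CPM were found by Pearson correlation of log2 CPM over the 9 libraries, among 16305 tested genes with a mean of at least 5 CPM. For SUS1 they were LOC_Os11g39220 (r = 0.996), LOC_Os03g52460 (r = 0.994) and LOC_Os07g04690 (r = 0.991), and 276 genes exceeded 0.95. LOC_Os07g04690 averaged 260 ± 11.2 CPM in OE1, 174 ± 2.19 CPM in OE2 and 187 ± 0.336 CPM in ZH11. For SUS2 they were LOC_Os05g51790, LOC_Os03g05660 (both r = 0.995) and LOC_Os03g52070 (r = 0.993), and 919 genes exceeded 0.95. LOC_Os05g51790 averaged 57.6 ± 3.10 CPM in OE1, 45.7 ± 1.87 CPM in OE2 and 68.4 ± 0.810 CPM in ZH11. The 9 libraries form 3 groups, so these correlations mainly compare the order and spacing of 3 group means.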

How the data were processed

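The authors deposited grain values as raw read counts, 1 whole number per gene and library. HISAT2, featureCounts, BWA and DESeq are named, with neither version nor role, per the submitters' processing notes. No source used here states the assembly, the gene models or whether strand was used in counting. Whether reads of antisense partners, and reads shared by similar family members, were kept apart is therefore not known. Low counts (1 to 20) were even in 64.9% to 68.1% of cases per library, against 49.4% to 50.6% of counts above 100.

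Tests were run with edgeR 4.0.16 under R 4.3.3, and with DESeq2 1.42.0 as an alternative. edgeR's default expression filter left 24765 of 39217 genes. The quasi-likelihood test, with TMM factors, robust dispersions and group as the only factor, was fitted on all 9 grain libraries. It was also run on simulated libraries, which shared a common composition apart from a small set of changed genes. That run therefore did not check the choice of scaling. Tests were two-sided, with Benjamini-Hochberg adjustment over all tested genes and a threshold of 0.05. Standard errors were derived from the log2 fold change and its F statistic. CPM values use the TMM factors.

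The members and all lists were chosen with earlier results of these data known. All 7 members were to be named. In each class of neighbouring enzymes, the gene of highest mean CPM and the one of smallest adjusted p were to be named, where the reference gene table, made from another assembly, carries the symbol. Alternatives were other scalings, filters, tools, libraries and the replicate number as a block.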

Additional observations from a re-analysis of the deposited data

Results flagged for a closer look

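The log2 change against ZH11 differed between OE1 and OE2 for 4 of the 6 tested SUS genes, by the direct test of the difference in edgeR. The change in OE1 minus that in OE2 was 1.52 for SUS3 (adjusted p = 6.03e-25), 0.91 for SUS6 (adjusted p = 4.62e-09), 0.51 for SUS1 (adjusted p = 4.87e-13) and 0.43 for SUS2 (adjusted p = 1.09e-10). Over all genes, 65.2% differed between the lines at this threshold, so the count of SUS genes was near the share over all genes. The fitted changes of SUS3 and SUS6 lay on opposite sides of 0 in the lines under both scalings, and that of SUS6 in OE2 did not pass with TMM.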

How the results depend on the processing

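Scaling was the choice that mattered most. With library totals in place of TMM, SUS1 in OE1 turned to -0.10 and SUS5 in OE2 to -0.086, SUS5 in OE1 was no longer called (0.20), and SUS6 in OE2 (-0.70) and SUS4 between the lines (0.15) became called. The SUS genes called in OE1 were then 3 higher and 2 lower, and the neighbouring enzyme genes called were 9 higher and 17 lower in OE1 and 7 higher and 18 lower in OE2. Over all genes 5115 were higher and 14665 lower in OE1 (25.9% of calls higher, against 50.1% with TMM), and 6050 higher and 14233 lower in OE2 (29.8% against 51.6%). The summed CPM became 1302 in OE1, 789 in OE2 and 1479 in ZH11. Leaving out 1 library at a time, SUS5 ran from 0.48 to 0.82 in OE1 and from 0.33 to 0.61 in OE2 and from 0.0089 to 0.36 between the lines, SUS1 in OE2 from -0.13 to -0.090, and the number of SUS genes called higher in OE2 from 1 to 2. RLE size factors, DESeq2, both other filters, fits on only the groups compared and the replicate block changed no call of a SUS gene. Same-numbered libraries did not deviate together (correlations -0.016 to 0.035), so no pairing by number was detected. A small shared effect is not excluded. With the replicate block, SUS3 was at 0.94 in OE1 and -0.57 in OE2, and 8313 genes were higher and 8285 lower in OE1. Levels per coding length were not computed. Depth limits SUS7, with 34 counts in all 9 libraries.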
